A study of Mus musculus with 46 samples.

Results

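The measurements concern 8 genes for proteins of the cell surface of mouse embryonic fibroblasts (MEFs): the caveolins Cav1 and Cav2, the growth factor receptor Met, the TGF-beta type I receptor Tgfbr1, the natriuretic peptide receptors Npr2 and Npr3, the interleukin-11 receptor alpha chain Il11ra1 and the cholesterol exporter Abca1. They were taken by name, and a mean of at least 5 CPM (the counts of a gene scaled to the depth of its library) over all libraries was required. All 8 of the 8 named genes reached it, from 9.97 CPM for Abca1 to 432 CPM for Cav1, out of 55416 rows of the count table that carry a gene identifier. The 8 genes lie in 3 chromosome intervals of GRCm38 in which the identifiers of the rows match genes, namely chr15:9071260-37007773, chr4:5644090-55532466 and chr6:13834458-31563981, which hold 1207 rows and 7.98% of the counts. Outside them the gene behind a row is not known: the row that carries the identifier of Eef1a1, a translation elongation factor abundant in dividing cells, held a mean of 0.0146 CPM. The row of Atf4 lies outside as well, so its transcript level is not used here to check the knockout, and the levels of the 8 genes have no second measurement in these files.

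The RNA-seq libraries came from 2 MEF lines, wild type and ATF4 KO, after 7 h with vehicle (1% v/v DMSO) or with borrelidin at 600 nM. Borrelidin blocks the threonyl-tRNA synthetase, and the study used it to raise the transcription factor ATF4. There were 11 wild type and 11 ATF4 KO libraries with vehicle and 12 of each line with borrelidin, all labelled as biological replicates. The wild type MEFs were bought and the ATF4 KO line was made by CRISPR/Cas9 in the laboratory of the study, so other differences between the lines and the loss of ATF4 cannot be told apart. Libraries of a line show how its cultures vary, not how independent knockouts vary, and in bulk RNA fewer cells of a type and less RNA per cell cannot be told apart. These questions follow from the design: how each gene responded to borrelidin in cells that can make ATF4, how it responded without ATF4, whether these responses differed, and how the lines differed under each treatment.

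Caveolins are membrane proteins that coat caveolae, the small flask-shaped pits of the plasma membrane that are abundant in fibroblasts. Cav1 is required for caveolae in non-muscle cells, and Cav2 forms hetero-oligomers with it and depends on it to reach the surface. Met is the receptor tyrosine kinase for hepatocyte growth factor, Tgfbr1 is the kinase that phosphorylates SMAD proteins after TGF-beta binds, and Il11ra1 binds interleukin-11 and signals through gp130. Npr2 is the guanylyl cyclase that makes cyclic GMP when C-type natriuretic peptide binds, whereas Npr3 binds the natriuretic peptides, has no cyclase domain and removes them from the medium. Abca1 moves cholesterol and phospholipid out of the cell to apolipoprotein A-I and is a classical target of the liver X receptors.

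The 3 genes of chromosome 6 are neighbours on the plus strand: Cav2 (chr6:17281185-17289115), Cav1 (chr6:17306335-17341452) and Met (chr6:17463800-17573980). The end of Cav2 lies 17.2 kb before Cav1, and the end of Cav1 lies 122.3 kb before Met. On chromosome 4 lie Il11ra1 (chr4:41699989-41769474, plus strand), Npr2 (chr4:43631935-43651244, plus strand), Tgfbr1 (chr4:47353222-47414931, plus strand) and Abca1 (chr4:53030787-53159895, minus strand), and Npr3 lies on chromosome 15 (chr15:11839896-11907287, minus strand). RefSeq promoter windows of the same build (GRCm38.p6), 250 bases before to 50 bases after a start, were found for all 8 genes, 11 windows in all. The 120 bases before the start are shown for the caveolin neighbours, whose levels moved alike, and for the natriuretic peptide receptors, whose levels did not, with a 27-base stretch of the Met window. Each runs 5′ to 3′ on the strand of the gene, and capitals mark an AP-1 site (TGACTCA, or TGAGTCA on the other strand) or a GC box (GGGCGG, or CCGCCC on the other strand).

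Cav2, chr6:17281065-17281184, plus strand: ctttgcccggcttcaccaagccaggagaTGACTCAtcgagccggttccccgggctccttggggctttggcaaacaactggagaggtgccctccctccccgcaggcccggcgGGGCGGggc
Cav1, chr6:17306215-17306334, plus strand: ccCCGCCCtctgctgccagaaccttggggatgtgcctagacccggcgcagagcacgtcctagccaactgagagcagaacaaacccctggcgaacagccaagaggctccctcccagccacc
Met, chr6:17463893-17463919, plus strand: gttgcccggcTGAGTCAcgggccgggc
Npr2, chr4:43631815-43631934, plus strand: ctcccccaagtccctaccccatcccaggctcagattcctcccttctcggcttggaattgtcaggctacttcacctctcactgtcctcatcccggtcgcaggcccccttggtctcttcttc
Npr3, chr15:11907372-11907491, minus strand: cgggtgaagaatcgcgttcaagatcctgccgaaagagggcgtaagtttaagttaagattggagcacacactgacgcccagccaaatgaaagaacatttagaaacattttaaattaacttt

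The AP-1 site, which binds FOS and JUN dimers, began at base -92 of the Cav2 window and at base -54 of the Met window. It was not found in the windows of Cav1 or of the other genes, and its part in the levels was not tested. In all, 5.2% of 32851 RefSeq windows hold an AP-1 site. The Met stretch, chr6:17463893-17463919, lies before the RefSeq start but after the start of the Met gene given above, chr6:17463800. A GC box, the motif of SP1, stood in 7 of the 11 windows here and in 35.7% of all windows. These windows belong to 6 of the 8 genes (Cav1, Cav2, Met, Tgfbr1, Il11ra1 and Abca1). The ATF4 element was searched as ATTGCATCA, GTTGCATCA, ATTTCATCA and GTTTCATCA on both strands. It was in 0.837% of all windows and in 0 of the 11 windows here, which says only that these letters are not in these stretches. The E-box CACGTG was found for Abca1 and Met (7.15% of all windows) and the letters TATAAA for Abca1 and Cav1 (13.6%). In Abca1 they began at base -29. The AP-1 letters overlap none of the other motifs. The Npr3 window had the lowest GC content, 39.0%, and the Met window the highest, 75.7%, against a median of 52.7% over all windows.

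Counts on genes per library ran from 2047362 to 3467765, and 8986 rows were tested. On the second principal component, computed without the 8 genes, 14 libraries stood apart from the rest of their group: 8 of 11 wild type vehicle libraries (replicates 1 to 8), 3 of 11 ATF4 KO vehicle libraries and 3 of 12 ATF4 KO borrelidin libraries (replicates 1 to 3 of both), but 0 of 12 wild type borrelidin libraries. In wild type this set therefore falls wholly on the vehicle arm, and the main results are given with and without it. Without it, wild type vehicle is 3 libraries. The set apart and the other libraries of a group overlapped in depth, for example at 2706771 to 3467765 and 2476005 to 2904290 counts in wild type vehicle. Their normalization factors did not overlap in any of the 3 groups, with 1.05 to 1.15 in the set and 0.94 to 1.04 in the other libraries of these groups. In ATF4 KO vehicle 5.34 to 5.76% of reads were of low alignment quality in the set and 4.68 to 5.17% in the others. In wild type vehicle these shares overlapped, at 5.02 to 6.12% and 4.94 to 5.73%. They also overlapped in ATF4 KO borrelidin, at 4.91 to 5.43% and 4.28 to 5.36%. The part of these values in the results was not tested. The library labelled WT borrelidin replicate 5 also differed, with 63.8% of its reads on no feature and 14.98% not aligned, the lowest and the highest values of its group, and the lowest normalization factor (0.78). WT borrelidin replicate 10 had 14.85% of reads not aligned and the fewest counts on genes, 2047362, and its part in the results was not tested.

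Both caveolins fell with borrelidin in both lines and were higher in ATF4 KO than in wild type under both treatments. Cav1 was at 318, 436 and 486 CPM (lowest, median and highest) in the 11 wild type vehicle libraries and at 248, 271 and 313 in the 12 with borrelidin. In ATF4 KO it was at 488, 628 and 804 CPM with vehicle and at 352, 402 and 423 with borrelidin. Every borrelidin library thus lay below every vehicle library of its line, and every ATF4 KO library lay above every wild type library of the same treatment. On the log2 scale Cav1 fell by 0.59 in wild type (SE 0.07, edgeR adjusted p = 8.73e-10), to 0.66 of the vehicle level, and by 0.70 in ATF4 KO (SE 0.07, adjusted p = 2.84e-11), to 0.61 of it. ATF4 KO was 0.62 higher with vehicle (SE 0.07, adjusted p = 4.63e-10) and 0.51 higher with borrelidin (SE 0.07, adjusted p = 1.26e-08). The wild type vehicle and ATF4 KO borrelidin libraries, the middle groups in the order of levels, overlapped.

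Cav2 followed at lower counts. It was at 127, 167 and 209 CPM in wild type with vehicle, at 88.5, 112 and 131 with borrelidin, at 192, 240 and 318 in ATF4 KO with vehicle and at 124, 138 and 156 in ATF4 KO with borrelidin. The order of the groups was the one of Cav1, but only in ATF4 KO did the vehicle and borrelidin libraries not overlap. Cav2 fell by 0.60 in wild type (SE 0.08, adjusted p = 2.36e-08) and by 0.87 in ATF4 KO (SE 0.08, adjusted p = 2.56e-12), to 0.66 and 0.55 of the vehicle level. ATF4 KO was higher by 0.61 with vehicle (SE 0.08, adjusted p = 1.54e-08) and by 0.34 with borrelidin (SE 0.08, adjusted p = 2.52e-04).

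**Figure D1:**
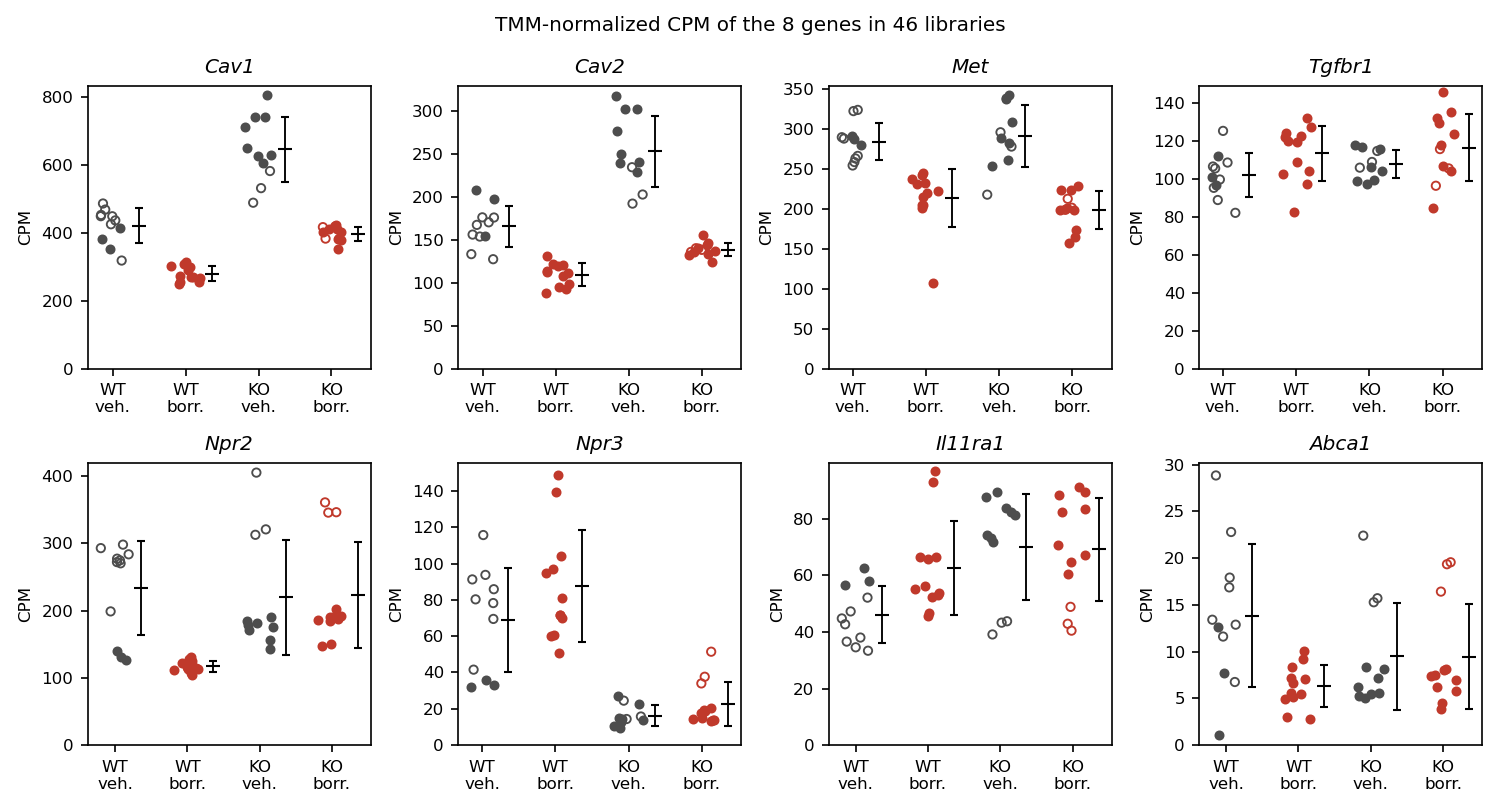
TMM-normalized CPM (linear axes from 0) of the 8 genes in each of 46 libraries, in wild type (WT) and ATF4 KO (KO) with vehicle (veh., grey) and borrelidin (borr., red); open points are the 14 libraries set apart on the second component, and bars to the right of the points are the mean and SD of a group. Cav1 and Cav2 are lower with borrelidin in both lines and higher in KO, and Npr3 is low in KO. The open points of Npr2 and Il11ra1, and in KO those of Abca1, lie away from the filled points of the same group.

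The fall of the caveolins passed the test with and without the 14 libraries. Within the set apart, which has 3 libraries of each treatment in ATF4 KO, Cav2 fell by 0.54 (adjusted p = 0.0066), while the values of Cav1 and Met were -0.33 (adjusted p = 0.094) and -0.31 (adjusted p = 0.12). Without the set, ATF4 KO had more Cav1 than wild type by 0.84 with vehicle (adjusted p = 4.76e-10) and within it by 0.27 (adjusted p = 0.041). The difference between the lines in the fall of either gene did not pass with all libraries. The wild type response minus the ATF4 KO response was 0.11 for Cav1 (95% interval -0.08 to 0.30, adjusted p = 0.39) and 0.27 for Cav2 (0.05 to 0.49, adjusted p = 0.054). Without the 14 libraries the fall of Cav1 was 0.46 in wild type (adjusted p = 2.28e-05) and 0.80 in ATF4 KO (adjusted p = 6.43e-14), and their difference of 0.35 passed the test (0.15 to 0.54, adjusted p = 0.020). With the library set as a term in the fit this difference was 0.07 (adjusted p = 0.68), so its call rests on how the set was treated. For Cav2 the falls were 0.78 and 0.96 without the 14 libraries, and the difference of 0.18 did not pass (adjusted p = 0.44).

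Per kilobase of exon there was more Cav1 than Cav2 RNA in every group, with median ratios of 2.49 in wild type with vehicle, 2.38 with borrelidin, 2.53 in ATF4 KO with vehicle and 2.74 with borrelidin. In ATF4 KO the ratio ran from 2.17 to 2.64 with vehicle and from 2.62 to 2.97 with borrelidin, so that it was higher with the drug in nearly all libraries. The mean log2 ratio rose there by 0.165 (SE 0.031, permutation p = 2e-05, the smallest that 100000 two-sided resamples can give, adjusted p = 5.33e-05 over 8 ratio comparisons). Without the set apart it rose by 0.152 (exact permutation p = 1.65e-04). In wild type the ratio differed by 0.007 between treatments (SE 0.097, permutation p = 0.94) with all libraries and by 0.312 without the set (exact permutation p = 0.022, 3 vehicle libraries).

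Met, the third gene of the cluster, fell with borrelidin like its neighbours but did not differ between the lines beyond its spread. It was at 254, 288 and 324 CPM in wild type with vehicle and at 107, 221 and 244 with borrelidin. In ATF4 KO it was at 218, 288 and 342 CPM with vehicle and at 157, 200 and 228 with borrelidin. In wild type the treatments did not overlap, and in ATF4 KO they overlapped between 218 and 228 CPM. Met fell by 0.41 in wild type (SE 0.09, adjusted p = 8.57e-05) and by 0.55 in ATF4 KO (SE 0.09, adjusted p = 1.61e-06), to 0.75 and 0.68 of the vehicle level. The difference of the responses was 0.14 (-0.09 to 0.38, adjusted p = 0.36).

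Between the lines Met differed by 0.04 with vehicle (ATF4 KO minus wild type, -0.14 to 0.21, adjusted p = 0.77) and by -0.11 with borrelidin (-0.27 to 0.06, adjusted p = 0.29). The lowest value, 107 CPM, belongs to WT borrelidin replicate 5. Without that library the wild type fall was 0.33 (adjusted p = 6.21e-05), and Met was lower in ATF4 KO with borrelidin by 0.17 (adjusted p = 0.027). With the 14 libraries left out the falls were 0.42 in wild type (adjusted p = 0.017) and 0.62 in ATF4 KO (adjusted p = 2.66e-06).

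**Figure D2:**
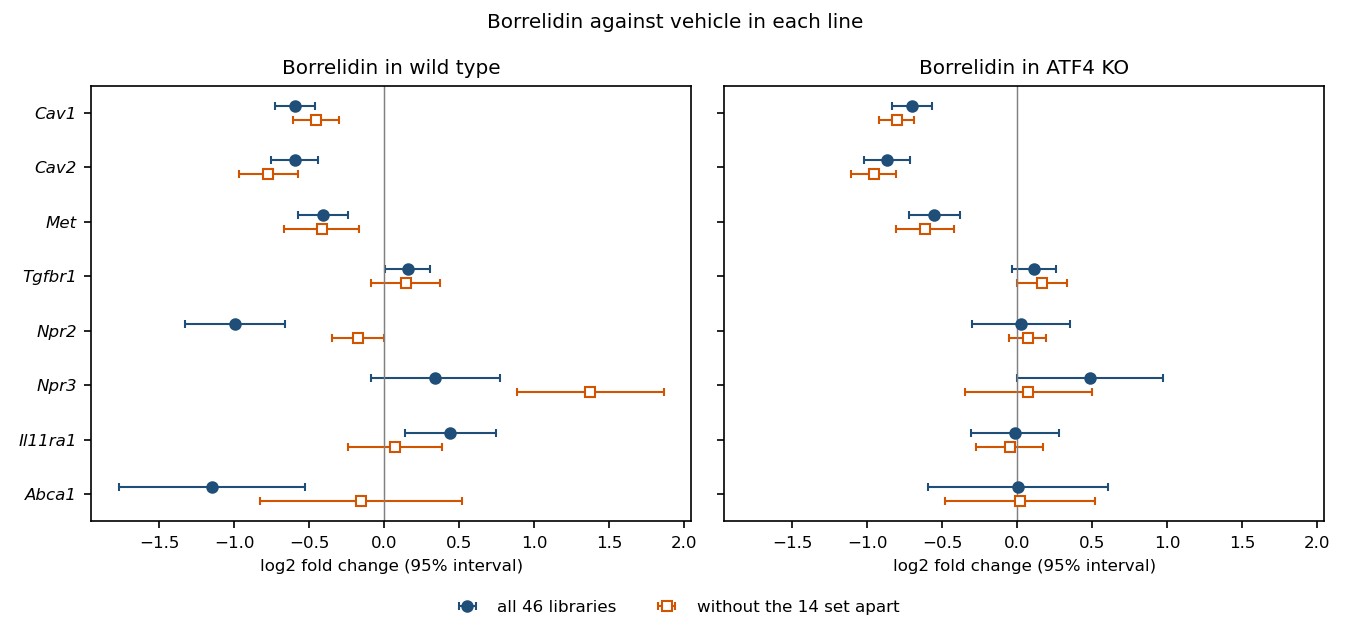
Log2 fold change of borrelidin over vehicle (points) with its 95% interval (bars) for the 8 genes in wild type (left) and ATF4 KO (right), with all 46 libraries (filled) and without the 14 set apart (open). The 3 genes of chromosome 6 lie below 0 in all 4 estimates, whereas the wild type values of Npr2, Npr3, Il11ra1 and Abca1 move when the set is left out.

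The other genes around the caveolins and Met moved in both directions in ATF4 KO, but not in wild type with all libraries. Of the 7 neighbours listed, 4 were tested: Tes, a LIM-domain protein of focal adhesions, Capza2, a subunit of the actin capping protein, St7, and the chloride channel Cftr. In wild type 2 of the 4 rose, St7 by 0.72 (SE 0.11) and Cftr by 2.29, and 0 fell. In ATF4 KO St7 rose by 0.49 and Tes fell by 0.52. Over all rows 26.5% rose and 32.9% fell in wild type, and 15% and 15.3% in ATF4 KO. Their median log2 fold change was 0.45 for wild type and -0.05 for ATF4 KO, against -0.06 and -0.03 over all rows tested.

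Tes was at 243, 279 and 586 CPM in wild type with vehicle and at 331, 378 and 437 with borrelidin, a difference of 0.12 (adjusted p = 0.50). Without the 14 libraries it fell by 0.57 in wild type (adjusted p = 1.93e-07), close to the 0.58 of ATF4 KO. St7 kept its rise without them, at 0.40 in wild type (adjusted p = 0.0058) and 0.47 in ATF4 KO. Cftr is a gene of few counts, at 0.00 to 3.46 CPM with vehicle and 4.96 to 9.74 with borrelidin in wild type, and at most 3.74 CPM in ATF4 KO. Wnt2, Cttnbp2 and Asz1, the 3 neighbours that were not tested, had means of 0.56, 1.52 and 0.00 CPM.

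**Figure D3:**
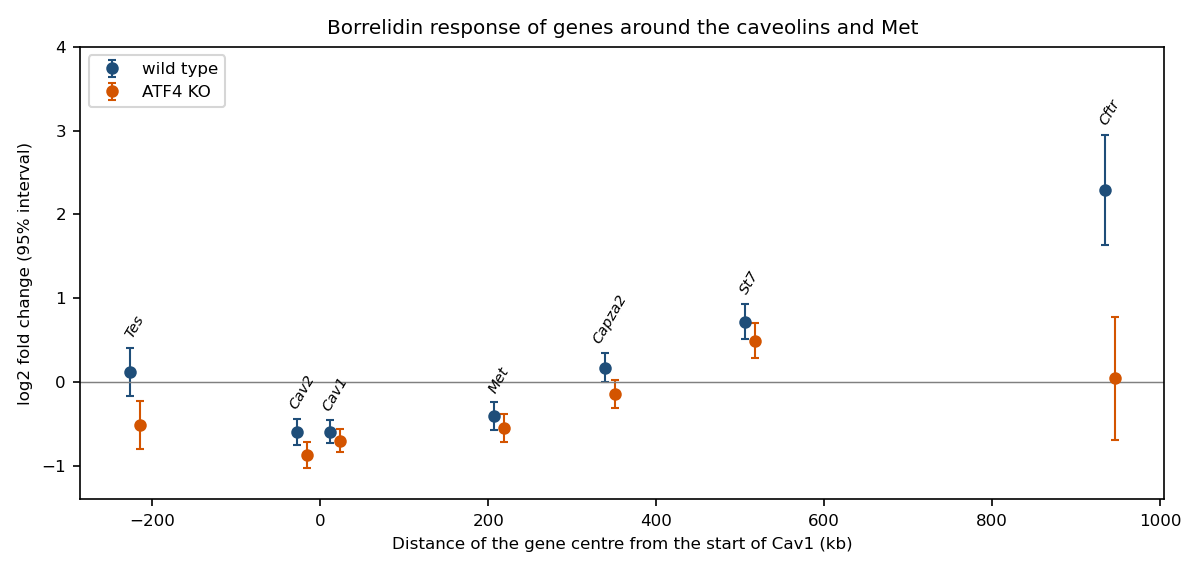
Log2 fold change of borrelidin over vehicle with its 95% interval for 7 tested genes around the start of Cav1 (distance of each gene's centre in kb), in wild type (blue) and ATF4 KO (orange), all 46 libraries. Cav2, Cav1 and Met lie below 0 in both lines, St7 above 0 in both, and the interval of Cftr lies above 0 in wild type and spans 0 in ATF4 KO, with a difference of 2.25 between the lines.

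The difference of Cftr between the lines in its response was 2.25 (SE 0.51, adjusted p = 6.9e-04), and 3.09 (adjusted p = 0.0013) without the set. That of Tes was 0.64 (adjusted p = 0.017) with all libraries and 0.01 (adjusted p = 0.97) without the set apart. That of Capza2 was 0.32 (adjusted p = 0.037) and 0.02 (adjusted p = 0.92).

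Tgfbr1 varied least of the 8 genes, with a root mean square deviation of 0.185 in log2 CPM over the 46 libraries, and passed no test with all of them. It was at 82.2, 101 and 125 CPM in wild type with vehicle, at 82.8, 120 and 132 with borrelidin, at 97.3, 106 and 118 in ATF4 KO with vehicle and at 84.7, 117 and 146 in ATF4 KO with borrelidin. All 4 groups overlapped, with the borrelidin medians above the vehicle medians in both lines. The log2 fold change was 0.16 in wild type (0.01 to 0.31, adjusted p = 0.072) and 0.11 in ATF4 KO (-0.04 to 0.26, adjusted p = 0.29), and their difference was 0.05 (-0.16 to 0.26, adjusted p = 0.76). The lines differed by 0.08 with vehicle (-0.07 to 0.23, adjusted p = 0.44) and by 0.03 with borrelidin (-0.11 to 0.18, adjusted p = 0.73). Without WT borrelidin replicate 5, whose 82.8 CPM is the lowest of its group, the rise of 0.21 in wild type passed (adjusted p = 0.011). Map3k7, the TAK1 kinase that acts in TGF-beta signalling, rose by 0.32 in wild type (adjusted p = 3.0e-04), and by 0.10 without the 14 libraries (adjusted p = 0.42).

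The natriuretic peptide receptors parted between the lines. Npr3 was lower in ATF4 KO under both treatments, while Npr2 was higher there with borrelidin. Npr3 was at 32.0, 78.2 and 116 CPM in wild type with vehicle and at 50.6, 76.6 and 149 with borrelidin. In ATF4 KO it was at 9.23, 14.3 and 26.8 CPM with vehicle and at 13.4, 18.3 and 51.4 with borrelidin. With vehicle the lines did not overlap, and with borrelidin the highest ATF4 KO library was just above the lowest of wild type. ATF4 KO was lower by 2.09 with vehicle (SE 0.25, adjusted p = 1.23e-09), at 0.23 of the wild type level, and by 1.94 with borrelidin (SE 0.23, adjusted p = 6.46e-10), at 0.26 of it.

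With the set left out the differences between the lines were -1.13 with vehicle (adjusted p = 0.0017) and -2.43 with borrelidin (adjusted p = 4.78e-15). The response of Npr3 to borrelidin depended on that set. With all libraries it was 0.34 in wild type (-0.09 to 0.77, adjusted p = 0.18) and 0.49 in ATF4 KO (0.00 to 0.97, adjusted p = 0.14). In wild type vehicle the 8 libraries set apart had 41.5 to 116 CPM and the other 3 had 32.0 to 35.9, and in ATF4 KO borrelidin the 3 set apart had 33.9 to 51.4 and the other 9 had 13.4 to 20.2. Without the set Npr3 rose by 1.37 in wild type (SE 0.25, adjusted p = 6.23e-05), all 12 borrelidin libraries lying above these 3 vehicle libraries, and differed by 0.07 in ATF4 KO (adjusted p = 0.82). Within the set apart, however, Npr3 rose by 1.25 in ATF4 KO (adjusted p = 0.0066), from 14.3 to 24.5 CPM in 3 vehicle libraries to 33.9 to 51.4 CPM in 3 borrelidin libraries. Without the set the difference of the responses was 1.30 (0.66 to 1.94, adjusted p = 0.0070). With the set as a term the rise in wild type was 1.16 (adjusted p = 7.57e-06) and the difference 0.74 (adjusted p = 0.058).

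Npr2 was at 126, 272 and 298 CPM in wild type with vehicle and at 105, 115 and 132 with borrelidin. In ATF4 KO it was at 143, 182 and 405 CPM with vehicle and at 147, 190 and 361 with borrelidin. With borrelidin the ATF4 KO libraries lay above all wild type libraries, by 0.94 in log2 (SE 0.17, adjusted p = 7.18e-06), and this difference remained without the 14 libraries, at 0.63 (SE 0.06, adjusted p = 7.40e-12). With vehicle the lines overlapped and differed by -0.08 (adjusted p = 0.72) with all libraries and by 0.38 in the opposite direction (adjusted p = 0.0019) without the set.

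The fall of Npr2 with borrelidin in wild type moved with the library set. It was 1.00 with all libraries (SE 0.17, adjusted p = 4.02e-06), against a difference of 0.02 in ATF4 KO (-0.30 to 0.35, adjusted p = 0.94), and the responses differed by -1.02 (-1.49 to -0.55, adjusted p = 0.0011). The libraries set apart held 199 to 298 CPM in wild type with vehicle against 126 to 139 in the other 3. They held 313 to 405 against 143 to 190 CPM in ATF4 KO with vehicle, and 346 to 361 against 147 to 202 with borrelidin. Within each of these groups the set apart and the other libraries did not overlap. Without the set the wild type difference was -0.18 (-0.35 to -0.01, adjusted p = 0.17) and the difference of the responses -0.25 (-0.46 to -0.03, adjusted p = 0.16). With the set as a term these were -0.21 (adjusted p = 0.026) and -0.26 (adjusted p = 0.036).

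The antisense gene Gm12473 shares 266 exon bases, 5.7%, with Npr2, and without a stated strand setting the reads on these shared bases cannot be told apart. Npr3 shares 321 exon bases, 3.4%, with Gm5144 on the other strand. The ratio of Npr2 to Npr3 per kilobase had medians of 7.06 in wild type with vehicle and 3.12 with borrelidin, and of 27.7 and 20.6 in ATF4 KO. It was higher in every ATF4 KO library with borrelidin, from 13.6, than in any wild type library with borrelidin, up to 4.56. The mean log2 ratio was higher in ATF4 KO by 1.93 with vehicle (SE 0.23, permutation p = 4e-05), or 1.58 without the set, and by 2.90 with borrelidin (SE 0.17, permutation p = 2e-05). In wild type it fell by 1.33 with borrelidin (SE 0.21, permutation p = 2e-05) and, without the set apart, by 1.48 (SE 0.16, exact permutation p = 0.0044). The latter is the smallest p that this test can give with 12 borrelidin and 3 vehicle libraries. In ATF4 KO the change of -0.36 did not pass (permutation p = 0.084).

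**Figure D4:**
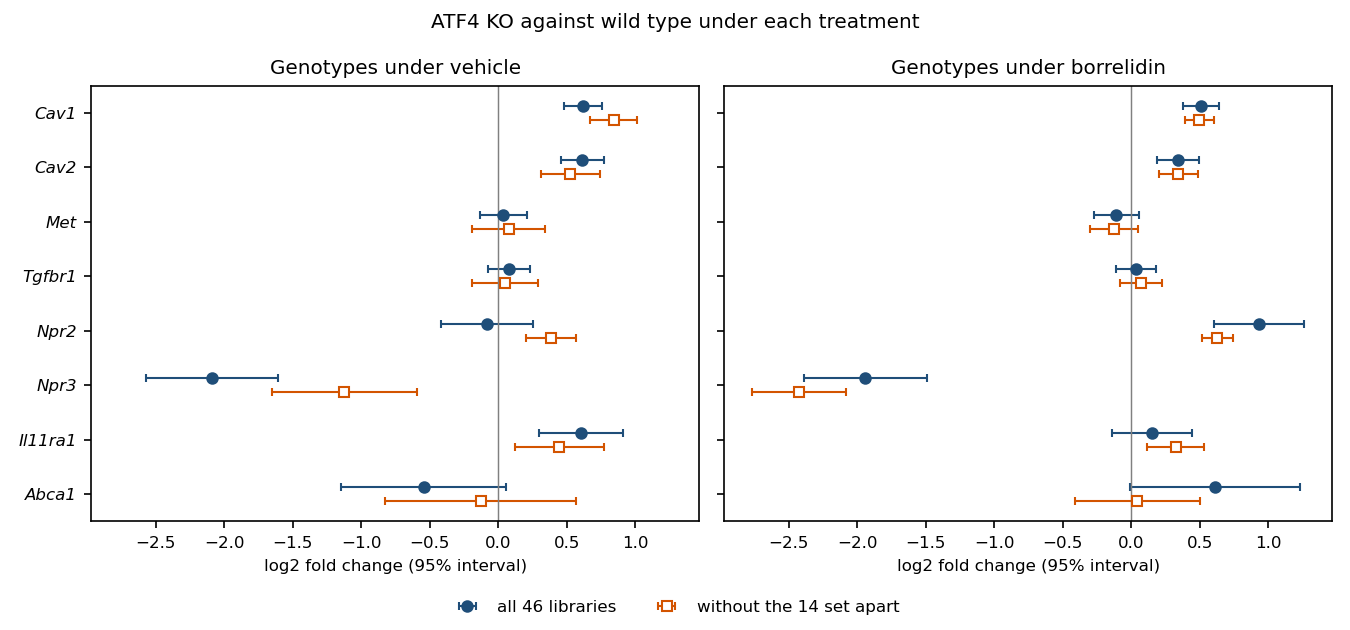
Log2 fold change of ATF4 KO over wild type (points) with its 95% interval (bars) for the 8 genes with vehicle (left) and borrelidin (right), with all 46 libraries (filled) and without the 14 set apart (open). Cav1 and Cav2 lie above 0 and Npr3 below 0 in all estimates, and Npr2 with vehicle changes sign.

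With vehicle Il11ra1 was higher in ATF4 KO by the edgeR test with all libraries, but the test did not pass without the set. Its values followed the library set in each group that has one. It was at 33.4, 44.8 and 62.7 CPM in wild type with vehicle, at 45.8, 55.7 and 96.8 with borrelidin, at 39.1, 74.4 and 89.5 in ATF4 KO with vehicle and at 40.5, 69.1 and 91.4 in ATF4 KO with borrelidin. All groups overlapped. The libraries set apart were lower here, at 33.4 to 52.2 against 56.6 to 62.7 CPM in wild type vehicle, 39.1 to 43.8 against 72.0 to 89.5 in ATF4 KO vehicle and 40.5 to 48.9 against 60.5 to 91.4 in ATF4 KO borrelidin. Il11ra1 rose by 0.44 in wild type (SE 0.15, adjusted p = 0.013) and differed by -0.02 in ATF4 KO (-0.31 to 0.28, adjusted p = 0.96), and these responses did not differ by the test (0.46, 0.03 to 0.88, adjusted p = 0.093). Without the set the wild type value was 0.07 (adjusted p = 0.82). Outside the set the ATF4 KO vehicle libraries, at 72.0 to 89.5 CPM, lay above those of wild type vehicle, at 56.6 to 62.7.

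With vehicle ATF4 KO had more Il11ra1 RNA by 0.61 (SE 0.16, adjusted p = 0.0018), whereas the difference was 0.45 without the set (0.12 to 0.77, adjusted p = 0.051), 0.23 with the set as a term (adjusted p = 0.10) and 0.005 within the set (adjusted p = 0.98). With borrelidin the difference was 0.15 (-0.14 to 0.44, adjusted p = 0.41) with all libraries and 0.32 (0.12 to 0.53, adjusted p = 0.0088) without it. Il11ra1 has near-identical copies on chromosome 4, Il11ra2, Gm13305 and Gm13306, with 0.58, 0.06 and 0.17 CPM. Reads that align at several places were counted on no gene, so reads shared with the copies may be missing from Il11ra1. Its gene model also spans other genes, among them Dctn3, and shares 8 exon bases with Ccl27a. Cntfr, the alpha receptor of ciliary neurotrophic factor and a relative of Il11ra1, was 0.38 lower with borrelidin in wild type (adjusted p = 0.0014), or 0.32 lower without the set, where it did not pass (adjusted p = 0.145), and was 0.83 higher in ATF4 KO with borrelidin (adjusted p = 6.4e-10).

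Abca1 had the fewest counts of the 8 genes, and among its groups the wild type vehicle libraries had the widest range. It was at 1.10, 12.9 and 28.9 CPM there and at 2.76, 6.14 and 10.1 with borrelidin, and at 5.05, 7.16 and 22.4 in ATF4 KO with vehicle and 3.84, 7.43 and 19.6 with borrelidin. All groups overlapped. The 3 libraries set apart had 15.3 to 22.4 against 5.05 to 8.39 CPM in ATF4 KO vehicle and 16.4 to 19.6 against 3.84 to 8.12 in ATF4 KO borrelidin, and in wild type vehicle the set had 6.74 to 28.9 against 1.10 to 12.6. With all libraries Abca1 fell by 1.15 in wild type (SE 0.32, adjusted p = 0.0018) and differed by 0.00 in ATF4 KO (-0.59 to 0.60, adjusted p = 0.99), and the responses differed by -1.16 (-2.02 to -0.29, adjusted p = 0.039). Without the set the wild type value was -0.16 (-0.83 to 0.51, adjusted p = 0.81) and the difference -0.17 (-1.01 to 0.66, adjusted p = 0.87). The lines differed by -0.55 with vehicle (-1.15 to 0.06, adjusted p = 0.17) and by 0.61 with borrelidin (-0.01 to 1.23, adjusted p = 0.10), and without the set by -0.13 (adjusted p = 0.84) and 0.05 (adjusted p = 0.88).

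Across all rows tested, borrelidin in wild type moved a large share at an adjusted p of 0.05, 26.5% higher and 32.9% lower. Of the 8 genes, 1 was higher (Il11ra1) and 5 were lower (Cav1, Cav2, Met, Npr2 and Abca1). At the threshold of the study, an adjusted p of 1e-10, 2.11% of rows and 0 of the 8 passed by edgeR, and 2 of the 8 by DESeq2 (Cav1 and Cav2). By limma voom the lowest adjusted p of the 8 was that of Cav1, 8.85e-10, which did not pass. Of the 346 tested genes of the 3 intervals 41.9% were higher and 17.1% lower. Without the 14 libraries 9.99% of rows were higher and 8.7% lower, and the 8 genes gave 3 lower (Cav1, Cav2 and Met) and 1 higher (Npr3).

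In ATF4 KO 15% of rows were higher and 15.3% lower, as were 25.7% and 15.9% of the tested genes of the 3 intervals. Of the 8 genes 0 were higher and 3 lower (Cav1, Cav2 and Met). By edgeR at an unadjusted p of 0.05, and by DESeq2 and limma after adjustment, 0 were higher as well. Cav1 and Cav2 were also past 1e-10, as were 0.49% of rows. The responses of the lines differed in 16.5% of rows with the wild type value higher and in 17.1% with it lower, and past 1e-10 in 0.501%. For the tested genes of the intervals these shares were 29.2%, 14.5% and 0.578%. Among the 8 genes the responses differed for 2, Npr2 and Abca1, both lower in wild type, and 0 were past 1e-10 by edgeR or DESeq2. With the wild type value higher there were 0 of the 8 by edgeR, 0 by DESeq2 and 0 by limma, and 2 by edgeR at an unadjusted p of 0.05 (Cav2 and Il11ra1).

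Between the lines with vehicle 18.1% of rows were higher and 17.2% lower in ATF4 KO, and 2.63% passed 1e-10. The 8 genes gave 3 higher (Cav1, Cav2 and Il11ra1), 1 lower (Npr3) and 0 past 1e-10, where DESeq2 put 3 (Cav1, Cav2 and Npr3). With borrelidin 25.7% of rows were higher, 24.1% lower and 5.49% past 1e-10, and the 8 genes gave 3 higher (Cav1, Cav2 and Npr2), 1 lower (Npr3) and 0 past 1e-10, where DESeq2 put 2 (Cav1 and Npr3). Groups that did not overlap were found for 2 of the 8 genes in each of the 4 pairs of groups. Over all rows that share was 6.25% for borrelidin in wild type, 2.5% in ATF4 KO, 5.38% between the lines with vehicle and 11.1% with borrelidin. Of the tested genes of the intervals 26% were higher and 12.1% lower in ATF4 KO with vehicle by the edgeR test. With borrelidin these interval shares were 24.9% and 29.2%.

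The median log2 fold change of the 8 genes was -0.50 for borrelidin in wild type and -0.01 in ATF4 KO, against 0.18 and 0.04 over the genes of the intervals and -0.06 and -0.03 over all rows. Between the lines it was 0.06 with vehicle and 0.25 with borrelidin, against 0.10 and -0.03 in the intervals. These medians pool genes that moved in opposite directions.

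Per kilobase of exon, the mean levels over all libraries were 125 CPM per kb for Cav1, 49.4 for Cav2, 42.2 for Npr2, 31.9 for Met, 16.9 for Tgfbr1, 13.9 for Il11ra1, 5.22 for Npr3 and 0.94 for Abca1. Cav1 was the most abundant of the 8 transcripts on this scale in every group. Every library held more Cav1 than Cav2 on this scale, whereas Cav2 and Npr2 overlapped within each group, as did Tgfbr1 and Il11ra1. Il11ra1 and Npr3 overlapped in wild type, but in ATF4 KO the highest Npr3 value, 5.48 CPM per kb with borrelidin, lay below the lowest of Il11ra1, 8.75 with vehicle. There Npr3 overlapped with Abca1, at 0.98 to 2.86 against at most 2.16 CPM per kb with vehicle.

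Of 13 listed partners and relatives of these proteins 12 were tested, and they moved in both directions. In wild type 5 rose and 4 fell with borrelidin (median -0.01), beside 26.5% and 32.9% of all rows, and in ATF4 KO 2 rose and 3 fell (median 0.01), beside 15% and 15.3%. The counts without the set apart were 2 and 2 in wild type, beside 9.99% and 8.7% of rows, and 2 and 4 in ATF4 KO, beside 21.7% and 20.1%. Talin, Tln1, which links integrins to actin, fell by 0.44 in wild type (adjusted p = 2.72e-05) and by 0.50 in ATF4 KO (adjusted p = 7.71e-06), and was higher in ATF4 KO by 0.45 with vehicle and 0.38 with borrelidin. Without the set its wild type value was -0.18 (adjusted p = 0.17), its responses differed by 0.45 (adjusted p = 0.0072, against 0.06 with all libraries), and the difference between the lines with vehicle was 0.71. Smo, the Hedgehog signal transducer, fell by 0.58 in ATF4 KO (adjusted p = 2.22e-07). In wild type Smo differed by 0.04 (adjusted p = 0.73) with all libraries and fell by 0.32 (adjusted p = 0.0011) without the set, and the responses differed by 0.62 (adjusted p = 6.95e-05) and 0.34 (adjusted p = 0.014). Creb3, a membrane-bound transcription factor of the endoplasmic reticulum, was higher in ATF4 KO by 0.77 with vehicle and by 1.12 with borrelidin.

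Of 21 other receptors and membrane proteins 12 were tested. With borrelidin 3 rose and 3 fell in wild type (median 0.20), and 2 rose and 3 fell in ATF4 KO (median -0.12), to be read against the same shares of all rows. Ank, a transmembrane exporter of pyrophosphate, was at 316 to 446 CPM in wild type with vehicle and at 90.8 to 187 in ATF4 KO, and was lower in ATF4 KO with vehicle (adjusted p = 1.88e-19, by 1.48 without the set apart) and by 2.01 with borrelidin (adjusted p = 1.95e-25). Gpr85, an orphan receptor, rose by 1.57 in wild type and fell by 0.62 in ATF4 KO, and the responses differed by 2.20 (adjusted p = 1.13e-08), or 2.07 without the set (adjusted p = 8.02e-05). Slc44a1, a choline transporter, fell in both lines, by 0.33 and 0.25, and also without the set, by 0.42 and 0.33. Tspan12, a tetraspanin of the Norrin receptor complex, fell by 0.47 in wild type and by 0.90 in ATF4 KO, and by 0.98 and 1.06 without the set.

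Between the lines, 5 of the 12 tested partners were higher and 1 lower in ATF4 KO with vehicle, and 6 and 2 with borrelidin. Of the other receptors 0 were higher and 3 lower with vehicle, and 2 and 4 with borrelidin. Over all rows these shares were 18.1% and 17.2% with vehicle and 25.7% and 24.1% with borrelidin.

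The genes whose pattern over the 46 libraries was most like each of the 8 were taken from the other 345 tested genes of the intervals. Likeness was the root mean square difference of log2 CPM after each gene was centred on its mean. Cav1 and Cav2 were each other's nearest gene (0.178, where the median gene differed from Cav1 by 0.628), and Tln1 came next for both (0.243 and 0.295). For Met it was the antisense RNA 1700060J05Rik (0.241) and Slc44a1 (0.264), and for Tgfbr1 it was Casp8ap2 (0.166) and Tnpo3 (0.170). Npr2 was nearest to its antisense neighbour Gm12473 (0.205), then to Pnisr (0.224), Il11ra1 to Chmp5 (0.186) and Dctn3 (0.199), and Abca1 to Pigo (0.575) and Npr2 (0.588). For Npr3 it was Ank (0.653) and Klf4 (0.814), where Npr3 itself had a spread of 1.149. The spread of the other genes was 0.185 for Tgfbr1, 0.323 for Met, 0.431 for Il11ra1 and 0.45 for Cav1. It was 0.47 for Cav2, 0.553 for Npr2 and 0.799 for Abca1. A gene that varied little, such as Tgfbr1, lies near any other gene that varied little, whatever its pattern. All these libraries share the 14 set apart, so likeness also counts that set.

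The label fibroblast was checked with 8 listed genes of the intervals, of which 7 were tested. One of them is Cav1 itself, which is no independent check. Calu and Flnc had means of 2389 and 2497 CPM, Rai14 491, Sdc2 328 and Reck 40.1, whereas Cped1 had 9.43 and the collagen gene Col15a1 0.96. Of 15 listed genes of other cell types in the intervals 6 were tested. Asz1 and Ccl21a were at 0, and Cpa1, Slc45a2, Il7r, Dnah5, Grm8, Aqp3 and Cdh17 had means of 0.01 to 1.28 CPM. Higher means were found for the neuronal genes Gabbr2 (6.93 CPM), Ptprz1 (6.50) and Kcnd2 (4.59) and for Cftr (3.03), of the order of the 9.97 CPM of Abca1. Cd72, a B cell receptor, had a mean of 92.3 CPM, with a difference of 0.28 between the lines with borrelidin (adjusted p = 0.0083). Pax5, a B cell transcription factor, was at 0.00 to 1.33 CPM in wild type and at 4.27 to 39.3 CPM in ATF4 KO, so that the lines did not overlap under either treatment. Their part in the results was not tested.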

How the data were processed

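The RNA of 46 MEF libraries was sequenced by the authors. Their deposited values are raw counts per mouse Ensembl identifier with no normalization, made from HISAT2 alignments. HTSeq, limma and mm10 are listed in the submitters' processing notes, while the methods of the study describe feature counts. Which versions, annotation release and strand setting were used is not given in the sources used here. GENCODE M21 (GRCm38) held 52083 of the 55416 identifiers. The 5 rows that name no gene were kept out of library sizes and tests. On average 69.0% of reads were on no feature, 4.0% at several places, 0.3% ambiguous and 10.8% not aligned. Reads whose alignment had a low quality made up 5.1%. Library totals of 2047362 to 3467765 limit the precision of genes with few counts.

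Group means over all libraries were fitted with the quasi-likelihood test of edgeR (version 4.0.16, R 4.3.3) after TMM scaling and the filterByExpr filter. Benjamini-Hochberg adjustment ran over all 8986 tested rows, with a threshold of 0.05 and, beside it, the 1e-10 of the study. Intervals are 95%, from the log2 fold change and its standard error. Values per library are TMM-normalized CPM. DESeq2 (1.42.0), limma voom (3.58.1), other scalings and filters, a replicate block and left-out libraries were the alternatives, and Python 3.11.15 wrote the tables. The fit was tested on simulated counts with few changed rows and no library set, which cannot show how that set acts on these results. Libraries were set apart where the widest gap of scores on component 2 (500 most variable rows, the 8 genes left out) exceeded 50% of the range of a group. Ratios were compared by two-sided permutation of libraries, exact where a group had fewer than 10.

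Same-numbered ATF4 KO libraries deviated together (r over 0.1 in 11 of 11 pairs, 0.18 to 0.78), but in 2 of 8 pairs without the set apart. In wild type this held in 2 of 11 pairs, between the lines in 5 of 10 with vehicle and in 3 of 12 with borrelidin, so numbers there only name libraries. No pair of libraries agreed within sampling noise.

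The text names the 8 genes, the listed genes of the 3 intervals and, for each of the 8, the 2 genes with the most similar pattern. The 8 genes and the lists were chosen with earlier results of these data known.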

Additional observations from a re-analysis of the deposited data

Results flagged for a closer look

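The borrelidin responses of the lines differed by the edgeR test of the difference for 2 of the 8 genes. For Npr2 the wild type response minus that of ATF4 KO was -1.02 in log2 (SE 0.24, adjusted p = 0.0011), and it was -0.25 (adjusted p = 0.16) without the 14 libraries set apart. For Abca1 it was -1.16 (SE 0.44, adjusted p = 0.039), and -0.17 (adjusted p = 0.87) without them. Both genes were higher in the libraries set apart, which hold 8 of 11 wild type vehicle libraries and 0 of 12 wild type borrelidin libraries. In wild type vehicle Npr2 was at 199 to 298 CPM in the set and at 126 to 139 in the other 3 libraries, beside 105 to 132 in the borrelidin libraries.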

How the results depend on the processing

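Of the recomputed fold changes of the 8 genes 418 kept their direction and side of the threshold, 30 lost and 11 gained a call, and 13 changed sign. Without the 14 libraries set apart, rows past the threshold numbered 1661 in place of 5337 for borrelidin in wild type, 880 in place of 3022 for the difference of the responses and 1881 in place of 3172 between the lines with vehicle. With the set as a term they numbered 2681 in wild type and 1829 for the difference, where 1 gene (Npr2) in place of 2 passed, as with limma. Within the set apart, chosen after seeing the data, 666 in place of 2721 rows passed for borrelidin in ATF4 KO. By edgeR with all libraries, at 1e-10 there were 190 rows in wild type, 44 in ATF4 KO, 45 for the difference, 236 with vehicle and 493 with borrelidin, and of the 8 genes 0 in all but ATF4 KO. By DESeq2 2 of the 8 (Cav1 and Cav2) passed 1e-10 in wild type, 3 (Cav1, Cav2 and Npr3) between the lines with vehicle and 2 (Cav1 and Npr3) with borrelidin. By limma voom the lowest adjusted p of the 8 in these comparisons was 8.85e-10 (Cav1), 5.7e-10 (Cav1) and 3.8e-10 (Npr3), which did not pass.

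Signs changed without the set for the difference of Tgfbr1 (-0.023) and of Npr3 (1.30), and for Npr2 between the lines with vehicle (0.38). With the set as a term they changed for Il11ra1 in wild type (-0.10) and its difference (-0.083), the difference of Npr3 (0.74), and Npr2 (0.36) and Abca1 (0.042) with vehicle. Within the set they changed for Il11ra1 in ATF4 KO (0.13) and, with vehicle, Met (-0.13), Npr2 (0.33) and Abca1 (0.077). Without WT borrelidin replicate 5, left out after seeing the data, Tgfbr1 between the lines with borrelidin was -0.0044. The cause was not tested.

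With the replicate number as a block no gene of the 8 changed its call in ATF4 KO, with 2999 rows past the threshold, and the difference of Il11ra1, 0.47, passed (adjusted p = 0.0092). Abca1, with the lowest CPM of the 8 genes, has the fewest counts behind its values.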
